A study of Mus musculus with 5 samples.

Results

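Arterial endothelial cells line the arteries and arterioles that carry blood to a tissue, and in the mouse temporomandibular joint (TMJ) disc, the fibrocartilage plate between the jaw condyle and the skull, they were a small class of 967 cells among 51688 cells analysed by single-cell RNA sequencing. A cell was counted as endothelial (EC) when it had at least 1 unique molecular identifier (UMI, 1 captured transcript) in 3 or more of the 6 genes Pecam1, Cdh5, Emcn, Flt1, Egfl7 and Ptprb, and no UMI of Tyrobp, a myeloid gene. It was counted as arterial when it also had no UMI of Selp, a gene of venules, and at least 1 UMI in 2 or more of the 6 arterial genes Gja4, Gja5, Sox17, Hey1, Sema3g and Efnb2. Selp-negative ECs with 0 or 1 of the 6 arterial genes, 1422 cells, served as the comparison class and are called other ECs, and a further 777 ECs had a UMI of Selp. The cells were thus chosen by the UMIs of these 14 genes, whose values are given only as a description.

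The study made 1 droplet library per condition from whole discs of mice that the labels give as wild type on a C57BL/6 background. These were uninjured discs of 4 ages (3 d, 3 w, 16 w, 78 w) as well as injured discs. By the study's injury protocol, discs were injured with a needle in the anterior band at 5 weeks of age. They were taken 2 weeks later, when the mice were 7 weeks old. The 3 d library pooled male and female pups in one suspension, and the 3 w, 16 w and 78 w libraries came from males. The label of the injured library gives no sex, and its sex-linked transcripts are given below. For the injury experiment the study's methods also describe Myh11-CreER;Tm fl/- reporter mice given tamoxifen, in which the Myh11 promoter drives the recombinase in mural cells and of which only males are said to have been used for lineage tracing, whereas the label of the injured library says wild type, so the genotype of that library is taken from its label only. The injury age and interval are likewise those of the protocol written for the reporter mice, and the study's passage on tamoxifen gives a shorter interval. No library of uninjured discs of 7 weeks was analysed here, so the injured library was set against the normal libraries on either side of it in age, 3 w and 16 w.

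In arteries the identity of the endothelium is set by a cascade in which VEGF and SoxF factors such as Sox17 switch on the Notch ligand Dll4 and its receptors, and Notch signalling then maintains Hey factors, ephrin-B2 (Efnb2) and the connexins Gja4 and Gja5, while the nuclear receptor Nr2f2 holds venous identity in veins. Flowing blood adds Klf2 and Klf4, and arteries of larger calibre are wrapped in smooth muscle and elastic fibres, with Jag1 on the endothelium signalling to Notch3 on the mural cell. The disc is mostly avascular in its centre, and its vessels lie in the peripheral bands and attachments.

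The 967 cells came to 279 at 3 d, 287 at 3 w, 164 at 16 w, 169 at 78 w and 68 in the injured library. They were 1.86% of the cells kept at 3 d (95% Clopper-Pearson interval 1.65 to 2.10%), 3.06% at 3 w, 1.87% at 16 w, 1.67% at 78 w and 0.803% after injury. All intervals here cover counting error only, and with 1 library per condition no difference between conditions was tested. Depth differed among the libraries, with medians of 7721, 12496, 9234, 9466 and 3299 UMIs over all kept cells in the same order (3 d, 3 w, 16 w, 78 w, injured, the order used below). Arterial cells were deeper than other ECs in each library, with medians of 8033, 6736, 5492, 4792 and 3094 UMIs against 5639, 4840, 4362, 4129 and 2051. Since a deeper cell passes a rule on detected genes more easily, the part of depth in the class was measured by thinning, below. Any pair of libraries shared between 19 and 39 cell barcodes.

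Among Selp-negative ECs the arterial share was 33.1% at 3 d (interval 29.9 to 36.3%), 53.1% at 3 w (48.8 to 57.4%), 42.5% at 16 w (37.5 to 47.6%), 41.6% at 78 w (36.8 to 46.6%) and 31.9% in the injured library (25.7 to 38.6%). After random thinning of every cell to 3000 UMIs, with shallower cells left out, the shares were 19.5, 38.0, 28.6, 34.6 and 40.3%. The injured library, lowest on all UMIs, was then the highest, although on only 25 of 62 cells (interval 28.1 to 53.6%). Of the normal libraries, 3 d was the lowest and 3 w the highest on both scales. At 1000 UMIs the shares lay between 8.81 and 12.9% with no library standing apart, so the number of cells that passed the rule depended strongly on depth.

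**Figure D1:**
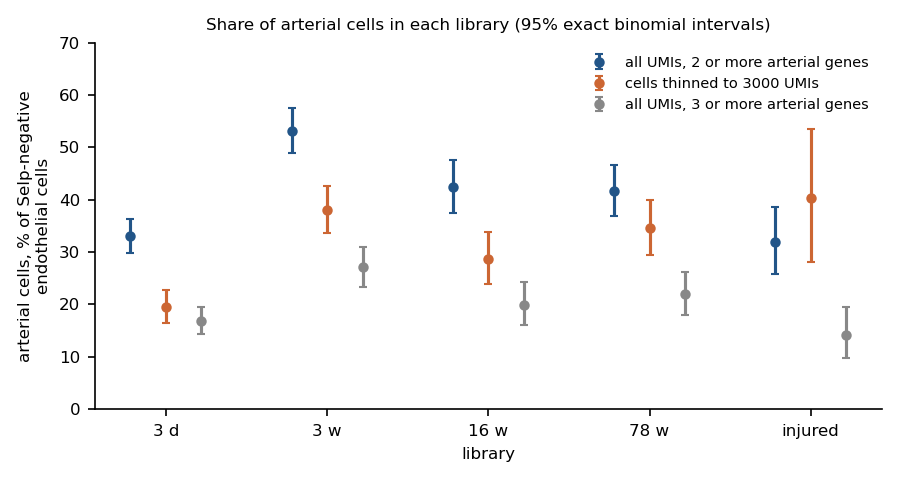
Share of Selp-negative ECs counted as arterial (y axis, percent) in each library (x axis), with exact 95% binomial intervals; points stand for all UMIs with 2 or more arterial genes, for cells thinned to 3000 UMIs, and for 3 or more arterial genes. The injured library moves from 31.9% on all UMIs to 40.3% after thinning, while 3 w is the highest normal library throughout.

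The class rested unevenly on its 6 arterial genes. Efnb2, the ligand of EphB4 on veins, was detected in 83.6% of the cells and Sox17 in 74.5%. The gap junction gene Gja4 was detected in 41.8%, the Notch target Hey1 in 40.3%, the secreted semaphorin Sema3g in 39.8% and Gja5, the connexin of larger arteries, in 11.1%. Of the 483 cells with exactly 2 of the 6 genes, 238 (49.3%) had Sox17 and Efnb2, and only 2 (0.414%) had Gja5. A further 228 cells had 3 of the genes and 256 had 4 or more, the latter numbering 92, 78, 36, 46 and 4 in the libraries. In those 256 cells Gja4 was detected in 84.0% and Gja5 in 37.5%.

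Of the markers that name the class, Pecam1, an adhesion molecule of all endothelium, stood at 677, 956, 1077, 1069 and 604 CPM (UMIs of the gene as a share of all UMIs of the arterial cells in that library, on the usual CPM scale). In cells with 0 or 1 of the endothelial genes it was between 2.79 and 5.88 CPM. Cdh5, the cadherin of endothelial junctions, stood at 754, 643, 622, 675 and 803 CPM, and was likewise near 0 outside the endothelium. Both genes are among those that chose the cells, so these levels only describe the selection. Gja4 was at 307, 100, 113, 155 and 165 CPM, with 3 d the highest, and Sox17 at 222, 304, 266, 407 and 293 CPM, with 78 w the highest. At an equal depth of 1000 UMIs, Sox17 was detected in 22.3 to 38.5% of arterial cells, in 0.940% of other ECs at 3 d and 5.56 to 11.4% of them in the other libraries, and in at most 0.15% of non-endothelial cells, a background level. Gja5 rested on 2 UMIs in the 68 injured cells.

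Several arterial genes that the rule did not use were higher the more rule genes a cell had, mostly above the threshold of 2, and others were not. Gkn3, a secreted protein known from arterial endothelium, averaged 0 CPM over the 4 normal libraries in Selp-negative ECs with none of the rule genes, 0.456 CPM with 1, 2.89 CPM with 2, 1.11 CPM with 3 and 88.2 CPM with 4 or more. Bmx, a tyrosine kinase of arterial endothelium, averaged 2.60, 4.48, 6.87, 23.9 and 91.6 CPM over the same steps. Fbln5, which assembles elastic fibres, averaged 51.0, 56.6, 60.8, 153 and 526 CPM, and Jag1 34.2, 34.9, 44.6, 60.0 and 240 CPM. Clu, at 1452, 1220, 1170, 1332 and 1259 CPM, and Gja1, at 266, 422, 406, 350 and 220 CPM, did not follow, and Dll4 had its widest relative step between 0 and 1 gene (61.5 and 109 CPM). For Gkn3, Bmx, Fbln5 and Jag1, cells just inside the threshold, with 2 rule genes, lay closer to cells just outside it, with 1, than to cells with 4 or more.

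Several genes of capillaries and venules, though not all of those listed, ran the other way across these steps. Plvap, which forms the diaphragms of fenestrae and caveolae, averaged 936, 1013, 1060, 683 and 328 CPM, and the water channel Aqp1 842, 809, 749, 467 and 289 CPM. Rgcc, listed as a capillary gene, averaged 705, 852, 882, 668 and 446 CPM. At 1000 UMIs it was detected in 7.05% of non-endothelial cells at 3 d and in 45.65 to 59.3% in the other libraries. Arterial cells had it in 23.4 to 42.5%, so outside 3 d Rgcc was not particular to endothelium. Nr2f2 averaged 107, 93.7, 89.1, 68.0 and 31.7 CPM, and the venular adhesion molecule Sele 74.3, 60.7, 40.6, 7.86 and 4.28 CPM. In the injured library, left out of these means, Sele was at 338 CPM in the 4 cells with 4 or more genes, on 7 UMIs, and with it the means were 67.6 CPM with none and 71.1 CPM with 4 or more. Other listed members did not decline steadily, among them Btnl9 at 33.4, 55.1, 84.9, 89.5 and 61.9 CPM, Cd36, the fatty acid translocase, at 260, 287, 274, 422 and 290 CPM, and Vcam1, lowest at 2 genes, at 80.3, 50.9, 29.6, 50.6 and 124 CPM. Pecam1 went from 725 CPM at 0 genes to 1012 CPM at 4 or more. In cells with exactly 2 rule genes, 483 of the 967, Plvap, Aqp1 and Rgcc were near their level in other ECs. In the same cells Lpl, lipoprotein lipase, was at 136 CPM against 73.5 and 92.6 CPM with 0 and 1. The name arterial rests most firmly on the cells with 4 or more, since with 3 genes Gkn3 was at 1.11 CPM and Cd36 at 422 CPM. The mural gene Rgs5 also climbed over these steps, from 21.9 to 406 CPM, and is taken up with the markers of other cell types.

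**Figure D2:**
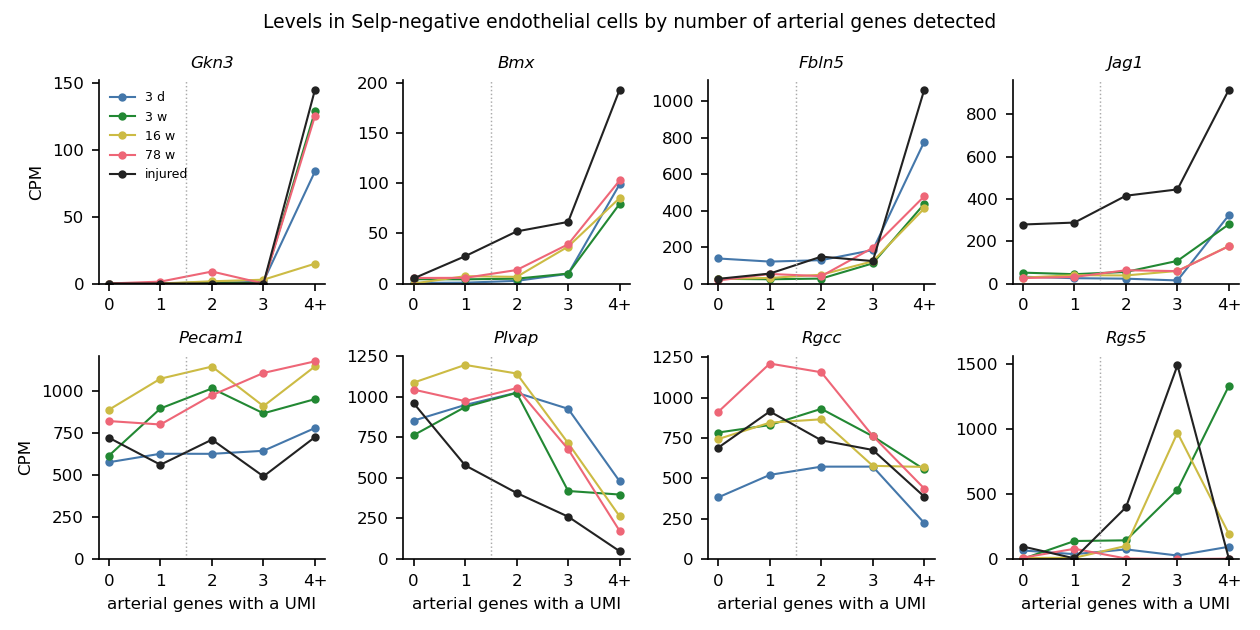
Mean level in CPM (y axis) of 8 genes in Selp-negative ECs by the number of arterial rule genes with a UMI (x axis, 0 to 4 or more), 1 line per library, with a dotted line at the rule's threshold. On average over the normal libraries, Gkn3, Bmx, Fbln5 and Jag1 climb mainly at 4 or more genes. Plvap and Rgcc decline from 3 genes on, and Pecam1 goes from 725 CPM at 0 genes to 1012 CPM at 4 or more.

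Arterial cells were compared with other ECs of the same library over the 5 libraries, using UMIs summed per library and class (edgeR quasi-likelihood test with the library as a block, Benjamini-Hochberg adjustment over 10045 genes, the 14 rule genes left out). At an adjusted p under 0.05, 246 genes were higher in arterial cells (2.45% of the genes tested) and 125 were lower (1.24%). The libraries are the replicates here, and they differ in age and condition, so the test asks what was common to all of them. Without the 3 w library the counts dropped to 114 and 48, and without the library block to 2 and 0 (104 and 43 at an unadjusted p under 0.05), while DESeq2 with the block gave 150 and 58. Of 28 arterial genes from outside the rule, 26 passed the filter, and 17 of them were higher and 0 lower, with a median log2 difference of 0.72 against -0.017 over all genes. The 9 that did not pass the test included Clu, Gja1 and Ltbp4.

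Gkn3 was the gene with the largest fold among those higher in all 5 libraries. It stood at 26.7, 48.9, 4.89, 42.4 and 11.3 CPM in arterial cells, in all 265 UMIs, and at 0.242, 0, 0, 0.799 and 0 CPM in other ECs, in all 2 UMIs (log2 difference 6.59 ± 0.386 SE, adjusted p = 7.12e-08, edgeR). The gene lies on chromosome 6 between 87383256 and 87388935 on the minus strand (GRCm38). Its UMIs came from 18, 14, 5, 12 and 1 cells, so that it marked a minority of the class. Bmx was at 34.4, 34.1, 32.6, 47.3 and 67.6 CPM against 0.728, 4.19, 3.85, 5.59 and 15.8 CPM (3.43 ± 0.297, adjusted p = 4.97e-06). Nebl, an actin-binding protein, was at 31.8, 45.1, 42.4, 50.3 and 45.0 CPM, a narrow range, against 1.21, 0.599, 1.54, 4.00 and 13.1 CPM (4.17 ± 0.310, adjusted p = 9.47e-07). Egfl8, a secreted EGF-like protein, was at 63.0, 35.2, 17.9, 15.8 and 22.5 CPM against at most 7.88 CPM (3.61 ± 0.252, adjusted p = 5.51e-07). For Bmx, Nebl and Egfl8 the lowest arterial value exceeded the highest value of the other ECs. The remaining genes of the 10 with the largest folds were Tox2, Tspan8, Plek2, Atp2b2, Dhh, a hedgehog ligand, and Gper1, an oestrogen receptor of the membrane, with log2 differences from 2.51 for Gper1 to 4.30 for Tox2 at levels under 31 CPM.

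Of the Notch pathway, 15 of 18 listed genes passed the filter, and 8 were higher and 0 lower. Among the ligands, Jag1 was at 116, 152, 74.97, 96.7 and 469 CPM in arterial cells and at 27.9, 46.1, 33.9, 28.8 and 284 CPM in other ECs, higher in 5 of 5 libraries (1.49 ± 0.160, adjusted p = 4.84e-05). Jag2 was lower in level, at 21.3, 39.8, 55.4, 56.2 and 26.3 CPM, and was also higher than in other ECs in 5 of 5 (1.03, adjusted p = 0.00166). Dll4, the ligand of arterial specification and of sprouting tips, reached 53.1, 243, 92.9, 119 and 60.1 CPM against 30.6, 198, 66.3, 81.5 and 63.0 CPM, higher in 4 of 5 libraries (0.45 ± 0.114, adjusted p = 0.0357). The difference of Dll4 was therefore small, it did not pass with DESeq2 (adjusted p = 0.135), and the injured library went the other way.

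Both Notch receptors of endothelium were higher in the arterial class. Notch1 was at 147, 279, 236, 314 and 218 CPM against 98.5, 203, 163, 192 and 152 CPM (0.54 ± 0.0876, adjusted p = 0.00169), and Notch4 at 53.4, 48.1, 43.2, 55.2 and 52.5 CPM against 24.7 to 42.7 CPM (0.63, adjusted p = 0.0112). Of the targets, Nrarp, a feedback inhibitor of Notch, was at 104, 199, 85.6, 79.9 and 158 CPM against 88.8, 68.9, 50.9, 39.1 and 36.8 CPM (0.93, adjusted p = 0.00568). Hes1 did not pass the test (0.22, adjusted p = 0.319). The other members called, Notch3 and Heyl, are genes of mural cells, and both dropped below the filter once cells with 3 or more mural markers were left out. Notch3 is itself among the mural markers that chose those cells, so its drop was set by that choice. Without cells that had 4 or more of 12 stromal markers, Notch1 and Dll4 lost the call (adjusted p = 0.197 and 0.257).

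Among arterial genes outside Notch, Cldn5, a claudin that seals endothelial tight junctions (chromosome 16, 18776847 to 18778262, plus strand, GRCm38), was at 451, 931, 367, 455 and 270 CPM against 142, 245, 25.4, 204 and 68.3 CPM (1.94 ± 0.216, adjusted p = 5.65e-05). Fbln5 was at 343, 200, 149, 214 and 206 CPM against 127, 24.0, 27.8, 36.8 and 39.4 CPM (2.19 ± 0.176, adjusted p = 2.28e-06). For both genes the lowest arterial value exceeded the highest value of the other ECs. The taurine transporter Slc6a6 was at 442, 512, 393, 550 and 608 CPM against 181 to 407 CPM (0.92, adjusted p = 9.25e-05). Epas1, the hypoxia-inducible factor of endothelium, was at 285, 459, 606, 628 and 334 CPM against 146, 258, 402, 412 and 234 CPM (0.70, adjusted p = 0.000219). Of the other transcription factors listed for endothelium, Mecom (0.75, adjusted p = 0.006) and Sox7 (0.42, adjusted p = 0.0401) also passed, making 3 of 15 higher and 0 lower, and both lost the call without the cells rich in stromal markers.

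Of 12 VEGF and angiopoietin genes 2 were higher, Vegfc and Pgf, and 1 was lower. Vegfc, a ligand of the VEGF receptors, was at 56.0, 60.6, 108, 80.9 and 45.0 CPM against 18.9, 15.6, 72.5, 43.1 and 21.0 CPM (1.18, adjusted p = 0.000622). Unc5b, a netrin receptor of arteries and tip cells, was at 46.4, 41.3, 33.4, 25.6 and 22.5 CPM against 13.3, 16.8, 12.3, 22.4 and 21.0 CPM (1.23, adjusted p = 0.00219). The gap for Unc5b was wide at 3 d and near 0 in the injured library. Pgf is placental growth factor (0.96).

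Vasoactive genes were split. Edn1, the precursor of the constrictor endothelin-1, was at 48.4, 122, 172, 142 and 289 CPM against 17.0, 18.6, 77.1, 40.8 and 150 CPM (1.57 ± 0.175, adjusted p = 5.65e-05). Kcnn4, the potassium channel that hyperpolarizes endothelium, was at 8.91, 20.8, 23.6, 27.6 and 30.03 CPM against 3.15, 8.99, 3.08, 11.2 and 13.1 CPM (1.51, adjusted p = 0.00204). Ace, which makes angiotensin II, was also higher (0.63, adjusted p = 0.0231), and Ptgs1, a cyclooxygenase, was lower in 5 of 5 libraries (-0.74, adjusted p = 0.00579). Klf4 passed (0.36, adjusted p = 0.0108), whereas Klf2 (0.26, adjusted p = 0.189) and Nos3, the endothelial nitric oxide synthase (0.46, adjusted p = 0.0573), did not. In all 4 of 17 vasoactive genes were higher and 1 was lower.

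**Figure D3:**
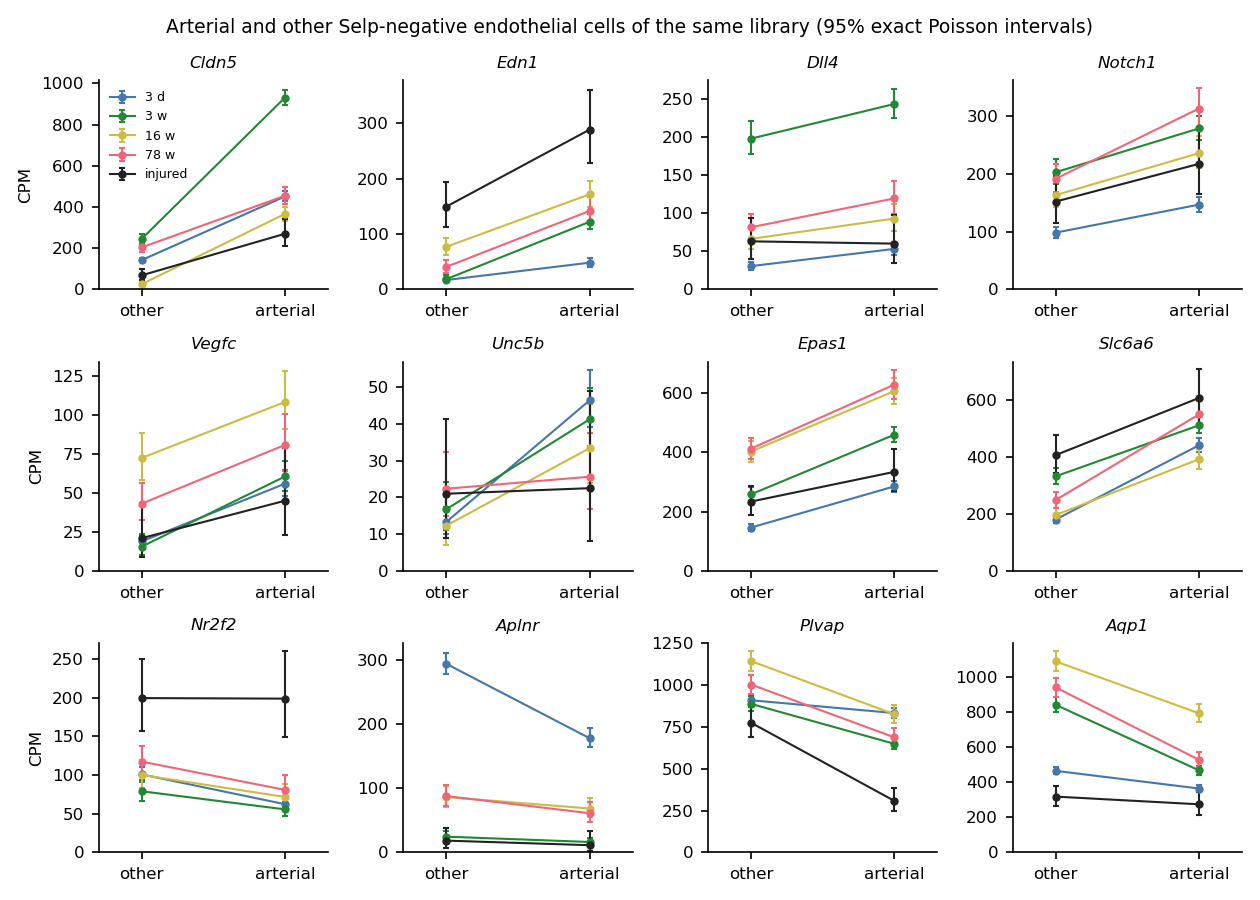
Level in CPM (y axis) of 12 genes in other ECs and arterial ECs (x axis), points joined within each of the 5 libraries, with exact 95% Poisson intervals. Cldn5, Edn1, Vegfc and Slc6a6 lie higher in arterial cells in every library, Dll4 in 4 of 5, and Nr2f2, Aplnr, Plvap and Aqp1 lie lower in all 5.

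Most matrix and BMP genes were not called between the classes. Fbln2 was at 614, 521, 602, 542 and 518 CPM, nearly level, against 226 to 404 CPM (0.76, adjusted p = 0.000169), and Mgp, an inhibitor of calcification and of BMPs, was higher in 5 of 5 libraries (0.70). With Fbln5 these were the 3 of 19 matrix genes that were higher, and Lama4, a laminin of capillary basement membrane, was the 1 that was lower (-0.40, adjusted p = 0.0423). Id1, a direct target of BMP receptors, was at 672, 264, 853, 922 and 86.3 CPM against 417, 173, 589, 606 and 84.0 CPM (0.55, adjusted p = 0.00163). With it Smad6, Smad7 and Acvrl1 passed, 4 of 15 genes of that pathway higher and 0 lower. Igf2, a fetal growth factor, was the 1 of 12 fetal growth genes called, at 1333, 138, 102, 170 and 30.03 CPM against 1017, 32.4, 27.8, 23.2 and 0 CPM (1.52, adjusted p = 0.0033).

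Of 12 venous and venular genes, 6 were lower in arterial cells and 0 higher, with a median log2 difference of -0.446. Ackr1, the chemokine decoy receptor of venules, was at 1.59, 2.27, 10.6, 10.8 and 3.75 CPM against 5.09, 5.39, 77.1, 34.4 and 18.4 CPM (-2.13 ± 0.273, adjusted p = 0.000201). Nr2f2 was at 62.4, 55.7, 71.7, 80.9 and 199 CPM against 101, 79.1, 100, 118 and 200 CPM (-0.51 ± 0.106, adjusted p = 0.0104). In the injured library Nr2f2 was thus as high in arterial cells as in other ECs, and its gap lay in the normal discs. Sele (-1.21, adjusted p = 0.0181), Lrg1 (-0.91, adjusted p = 0.00851), Aplnr, the apelin receptor (-0.59, adjusted p = 0.00568), and Nrp2 were the other members called. Both classes leave out the cells with a UMI of Selp.

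Of 13 capillary genes 2 were lower and 1 was higher. Plvap was at 833, 649, 826, 687 and 308 CPM against 909, 887, 1143, 1003 and 775 CPM (-0.55, adjusted p = 0.0126) and Aqp1 at 364, 467, 792, 528 and 274 CPM against 465, 841, 1088, 940 and 318 CPM (-0.59, adjusted p = 0.00178). Btnl9 was the 1 that was higher (0.68, adjusted p = 0.0064). Fmo2, a flavin monooxygenase, was at 0.318, 42.0, 275, 300 and 7.51 CPM against 0.242, 120, 537, 498 and 21.0 CPM, lower in 4 of 5 libraries (-1.05, adjusted p = 0.000186). Lists on fatty acid handling (12 genes tested), MHC class I (12) and the cell cycle (16) had 0 members called with edgeR. Of 16 immediate early genes 5 were higher (Fosb, Ier2, Junb, Nr4a1 and Dusp1), as were 3 of 13 activation genes, and 1 of 22 interferon genes, Irf7. The activation gene Sele was lower. Over all genes 2.45% were higher and 1.24% lower, which is the background for these counts.

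Transcripts of other cell types moved with the class. Of the genes with the largest folds downwards, Ibsp, a bone sialoprotein (-3.45, adjusted p = 2.03e-05), Dmkn (-2.80, adjusted p = 3.98e-05) and Scrg1 (-1.22) are not endothelial genes, and when cells were capped at 2 times their library's median UMIs Dmkn (adjusted p = 0.592), Scrg1 (0.739) and Stard10 (0.740) no longer passed. The other 6 of these 10, besides Ackr1, were Aoc2, Nts, Plekha7, Stard10, Wipf3 and Fam174b, with log2 differences from -1.65 to -1.20. With DESeq2 Aoc2, Nts, Plekha7, Stard10, Scrg1 and Fam174b lost the call (adjusted p from 0.0693 for Stard10 to 0.178 for Nts). Their log2 differences stayed about as large, from -1.944 for Nts to -1.162 for Fam174b. Without the cells rich in stromal markers Nts lost both the call and most of its difference (-0.11, edgeR adjusted p = 0.954). Fam174b lost the call but not the difference (-1.545, adjusted p = 0.0914). Ackr1 and Wipf3 kept the call under both. Of 12 stromal markers 7 were lower in arterial cells and 0 higher, Col1a1 among them. Stromal markers summed to 10506, 13464, 13960, 9337 and 16597 CPM in arterial cells, 15.4 to 28.7% of their level in non-endothelial cells and less than in other ECs in each library. Macrophage markers summed to between 17.1 and 60.1 CPM, muscle markers to at most 17.2 CPM and Schwann markers to between 8.91 and 22.5 CPM.

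Mural markers went with the arterial class: 5 of 9 were higher and 0 lower, with a median log2 difference of 1.77. Their sum was 232, 1289, 609, 125 and 1347 CPM in arterial cells and 175, 194, 468, 145 and 223 CPM in other ECs. Most abundant among them was Rgs5, a pericyte gene, at 71.6, 681, 372, 2.96 and 901 CPM, except at 78 w, where it was Tagln at 56.2 CPM. At least 3 of the 10 mural markers were detected in 19, 19, 7, 0 and 7 arterial cells, against 25, 3, 1, 1 and 1 of the other ECs. Without these cells Rgs5 went from higher (2.13, adjusted p = 0.0391) to lower (-1.47, adjusted p = 0.0313), the counts of called genes became 269 higher and 207 lower, and Gkn3, Bmx, Nebl, Fbln5, Jag1, Cldn5 and Edn1 kept their calls. Rgs5 is itself among the markers that chose these cells, so its turn was set by that choice. Whether those cells are doublets was not tested. Lymphatic markers summed to 450, 375, 44.8, 643 and 63.8 CPM, with Ccl21a leading at 3 d, 3 w and 78 w, and at least 2 of Prox1, Lyve1, Mmrn1 and Flt4 were detected in 10, 9, 2, 5 and 0 arterial cells. Erythroid markers summed to 1967 CPM at 3 d and to 9.47 to 39.5 CPM in the other libraries.

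With age, arterial cells differed most between 3 d and 3 w. Of 6515 genes with at least 100 UMIs over both sums, 1208 (18.5%) were at least 2-fold higher at 3 w and 1118 (17.2%) at least 2-fold lower. Between 3 w and 16 w, 228 of 5086 (4.48%) were higher and 377 (7.41%) lower at 16 w. Between 16 w and 78 w, 25 of 3469 (0.721%) were higher and 31 (0.894%) lower at 78 w, a split that became 32 and 25 under TMM scaling. For 78 w against 3 d the counts were 664 (12.3%) and 718 (13.3%) of 5385. Each contrast is of 1 library with another, so age cannot be told apart from any other difference between 2 libraries, and contrasts next to each other share a library. Of the genes higher at 3 w that had 100 UMIs or more in other ECs, 829 of 1051 (78.9%) were past 2-fold the same way there, as were 879 of 1108 (79.3%) of those lower, so most of these genes differed in the other ECs of the same libraries too.

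The 3 d arterial cells stood apart in transcripts of the cell cycle and of fetal growth. Of 16 cell cycle genes 15 were lower at 3 w and 0 higher, with a median log2 ratio of -4.88. Top2a, the topoisomerase of dividing cells, was at 137, 4.54, 1.63, 3.95 and 0 CPM, so that 3 d stood alone (30.2-fold lower at 3 w, interval 17.1 to 59.0). Of 11 fetal growth genes 10 were lower at 3 w and 0 higher. The imprinted gene Mest was at 936, 29.5, 7.33, 2.96 and 33.8 CPM (31.7-fold lower at 3 w, 25.3 to 40.2), and H19, an imprinted noncoding RNA, was at 1154, 10.6, 5.71, 1.97 and 11.3 CPM (109-fold lower, 75.2 to 164). Sox11, a factor of immature tissue, went down in steps, from 177 to 79.9, 30.2 and 0.986 CPM, and stood at 26.3 CPM after injury. Apln, the apelin of sprouting tips, was at 106 CPM at 3 d and at most 11.3 CPM in any other library.

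Of the matrix genes of the vessel wall, Eln, Col4a1 and Sparc were highest at 3 d. Eln, elastin, was at 1049, 264, 79.1, 87.8 and 97.6 CPM (3.98-fold lower at 3 w, 3.66 to 4.32). Col4a1, of the basement membrane, was at 3137, 1637, 763, 774 and 1468 CPM, lower by 2.15-fold from 3 w to 16 w and then level to 78 w. Sparc was at 8572, 7128, 2168, 2033 and 5074 CPM. For all 3 genes 16 w and 78 w lay together, and for Col4a1 and Sparc the injured library lay between 16 w and 3 w. Stromal Col1a1 moved alike in part in these cells, at 2665, 2478, 261, 82.8 and 5363 CPM. With Col1a2 and Col3a1 it was past 2-fold lower at 16 w than at 3 w and higher in the injured library than at 16 w. Unlike Eln, Col4a1 and Sparc, Col1a1 was also past 2-fold lower at 78 w than at 16 w, and its injured value was the highest. Its part in the matrix values was not tested. Of 19 matrix genes 6 were past 2-fold lower at 3 w, among them Eln, Fbn1 and Nid1, and 4 were past 2-fold higher, namely Ltbp4, Mgp, Lama5 and Lamb2, which with Vwf were also higher at 78 w than at 3 d. Over all genes 17.2% were lower and 18.5% higher at 3 w, so the share of matrix genes that were higher was near the background. A fatty acid binding protein, Fabp5, was at 515, 45.8, 61.1, 77.9 and 41.3 CPM, and Gpihbp1, which holds lipoprotein lipase on capillaries, at 717, 150, 137, 121 and 60.0 CPM.

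MHC class I genes and some flow-responsive genes were higher at 3 w than at 3 d. All 11 MHC class I genes that passed the minimum were past 2-fold higher at 3 w, with a median log2 ratio of 2.50. H2-K1 was at 66.2, 666, 698, 1087 and 664 CPM (10.1-fold, interval 8.71 to 11.7) and B2m, its light chain, at 471, 1064, 1390, 1605 and 1516 CPM (2.26-fold). The 3 d library was the lowest for both. Klf2 was at 410, 1948, 2247, 2328 and 570 CPM (4.75-fold from 3 d to 3 w, 4.47 to 5.05) and Klf4 at 216, 1147, 1491, 1614 and 1501 CPM. Nos3 was at 29.6, 119, 62.8, 79.9 and 41.3 CPM (4.03-fold, 3.19 to 5.14). Of 13 vasoactive genes 7 were past 2-fold higher at 3 w and 1, Ramp2, was lower, while at 78 w against 3 d it was 4 of 12 (Klf2, Klf4, Nos3 and Edn1). Among Notch genes 5 of 13 were past 2-fold higher, including Dll4 (4.58-fold, 3.85 to 5.46) and Hes1, at 206, 693, 458, 711 and 454 CPM, and 0 were lower. Notch3, a mural gene, was another of the 5, and all 9 mural markers that passed the minimum were past 2-fold higher at 3 w than at 3 d in these cells.

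Among stress and activation genes, Gdf15, Il6 and Icam1 were higher at 3 w than in every other normal library. Gdf15, a stress-induced cytokine, was at 5.73, 1461, 82.3, 331 and 732 CPM, which made it 255-fold higher at 3 w than at 3 d (161 to 431) and 59.7-fold higher in other ECs. Its UMIs at 3 w came from 132 of 287 cells, the top cell holding 8.09%. Il6 was at 29.3, 299, 39.1, 19.7 and 188 CPM, and Icam1, a leukocyte adhesion molecule, at 74.8, 515, 169, 329 and 432 CPM. Of 12 activation genes 10 were past 2-fold higher at 3 w than at 3 d and 1, Sele, was lower. At 16 w 7 of 11 were past 2-fold lower than at 3 w and 0 higher. Vcam1 (96.6 CPM at 3 w and 88.8 CPM at 78 w) and Cxcl2 (184 and 170 CPM) were about as high at 78 w. Of 15 immediate early genes 14 were higher at 3 w than at 3 d, whereas 1 was higher and 1 lower at 16 w than at 3 w. Fos, highest at 78 w, was at 582, 2082, 3254, 4671 and 995 CPM. Gja1, the connexin 43 of arterial and activated endothelium, was at 125, 869, 136, 175 and 841 CPM, Pgf at 10.5, 235, 8.96, 50.3 and 293 CPM, and Dll4 was 2.62-fold lower at 16 w than at 3 w (2.14 to 3.22). The 3 w and injured libraries were the highest for Gdf15, Il6, Icam1, Gja1 and Pgf. Some injured values rest on few cells. There 3 cells held 68% of the 50 Il6 UMIs, 52.6% of the 78 Pgf UMIs and 48.7% of the 195 Gdf15 UMIs, against 22.6% for Icam1.

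Some named genes of these contrasts rest on few cells or UMIs. Ccl21a, a lymphatic chemokine, had 0 UMIs at 16 w. By the exact interval limits it was at least 51.3-fold lower at 16 w than at 3 w. At 78 w it was at least 149-fold higher than at 16 w. With 0 taken as 3 counts these ratios were 63.4 and 184. Its UMIs came from 5 cells at 3 w and 5 at 78 w. Rgs5 was 126-fold lower at 78 w than at 16 w (42.7 to 611), with 9 cells at 16 w and 61.8% of its UMIs in the top cell. Other genes among those with the largest ratios between 3 w and 3 d were Slc7a11, Lncpint and Rab20 upwards, and Birc5, Ube2c, 2810417H13Rik and Xist downwards. Xist, expressed from the inactive X chromosome of females, was at 1167, 0, 0, 0 and 736 CPM and the Y-linked Ddx3y at 42.0, 180, 90.5, 87.8 and 0 CPM. The injured library thus had the sex-linked transcripts of female cells, unlike the male 3 w, 16 w and 78 w libraries. In its non-endothelial cells Xist was at 645 CPM and Ddx3y at 0 CPM. For the reporter line the study states males, and it places that transgene on the Y chromosome. Sex and injury cannot be told apart.

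Between 3 w and 16 w the chemokine Cxcl12, which arteries and perivascular cells secrete, stood out among arterial genes. It was at 577, 251, 1394, 1595 and 676 CPM in arterial cells and at 72.3, 159, 817, 1099 and 896 CPM in other ECs, 5.55-fold higher at 16 w than at 3 w in arterial cells (5.07 to 6.08) and 5.13-fold in other ECs. As a ratio the gap between the classes was widest at 3 d, and in the injured library arterial cells had the lower value. Cxcl12 did not pass the class test (edgeR, adjusted p = 0.129). Fmo2 was 6.53-fold higher at 16 w than at 3 w (5.26 to 8.17). Ifi27l2a was 7.56-fold higher (5.80 to 9.97). Of 20 interferon genes 1 was past 2-fold higher, or 0 with TMM factors, and 3 were lower. Over all genes 4.48% were higher and 7.41% lower at 16 w, so the share of interferon genes that were higher was near the background. All 3 Id genes listed were past 2-fold higher at 16 w, with Id1 at 3.23-fold, and the Notch genes Dll4, Jag1 (2.03-fold) and Nrarp (2.33-fold) were past 2-fold lower, 3 of 10 that passed the minimum.

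Adult and aged arterial cells differed in few of the listed genes. Of 20 arterial genes outside the rule 0 were past 2-fold between 16 w and 78 w, as were 0 of 9 Notch genes, 0 of 17 matrix genes and 0 of 14 immediate early genes, which is near the background, since over all genes 0.721% were higher and 0.894% lower. Of 7 activation genes, however, 3 were past 2-fold higher at 78 w (Vcam1, Cxcl1 and Cxcl2, with Icam1 joining them under TMM scaling), as were 2 of 9 venous genes (Lrg1 and Vcam1), and 2 of 5 fetal growth genes, Dlk1 and Meg3, were past 2-fold lower. Dll4 was 1.28-fold higher at 78 w (0.986 to 1.67) and Klf2 1.04-fold. The MHC gene H2-Q6 was at 0.318, 11.0, 36.7, 121 and 93.8 CPM, 3.31-fold higher at 78 w than at 16 w (2.33 to 4.76), and H2-K1 was 1.56-fold higher. Of 11 MHC class I genes listed 1, H2-Q7, was past 2-fold. Ednrb, the endothelin B receptor, was at 74.1, 290, 125, 44.4 and 184 CPM and was 2.81-fold lower at 78 w than at 16 w. Gdf15 was 4.03-fold higher at 78 w, but at 16 w 58.4% of its UMIs lay in 1 cell and at 78 w 54.2% lay in 3 cells. The top cell also held 52.2% of the 23 Cxcl2 UMIs and 45.2% of the 42 Vcam1 UMIs at 16 w. Erdr1 and Gm26870 were the other named genes that were higher. Of 12 stromal markers 3 (Col1a1, Col1a2 and Chad) were past 2-fold lower at 78 w than at 16 w and 0 higher. Their part in this contrast was not tested.

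**Figure D4:**
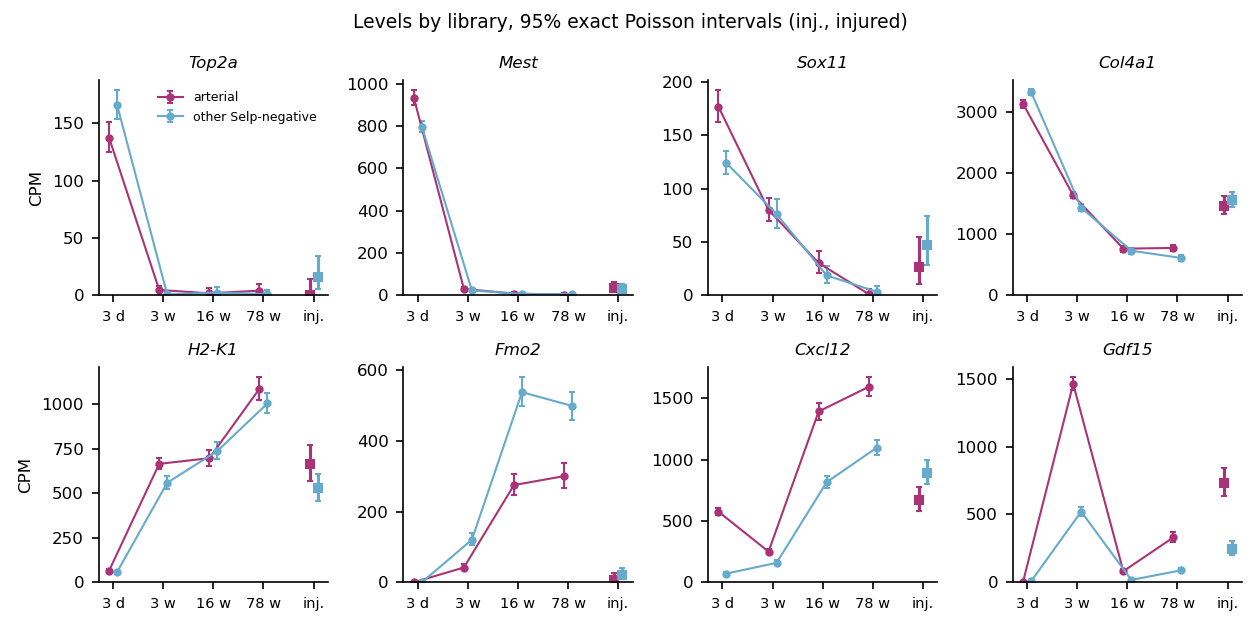
Level in CPM (y axis) of 8 genes in arterial ECs and other ECs by library (x axis, 3 d to 78 w, with the injured library set apart as squares), with exact 95% Poisson intervals. Top2a and Mest are high at 3 d only, H2-K1 is high from 3 w, and in arterial cells Cxcl12 and Fmo2 are highest at 16 w and 78 w and Gdf15 is highest at 3 w.

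Over the whole span, 78 w against 3 d, all 11 MHC class I genes and all 14 immediate early genes that passed the minimum were past 2-fold higher, and 15 of 16 cell cycle and 10 of 10 fetal growth genes past 2-fold lower. Among arterial genes outside the rule 8 of 23 were past 2-fold higher and 0 lower, namely Dll4, Notch1, Cxcl12, Sox7, Edn1, Clu, Ltbp4 and Epas1. Pltp, the phospholipid transfer protein, was 28.3-fold higher (19.5 to 42.5), and Mest 316-fold lower (108 to 1535).

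In the injured library, 54 of 2402 genes (2.25%) were at least 2-fold higher than in both the 3 w and the 16 w arterial cells, and 193 (8.03%) were at least 2-fold lower than in both. The 68 injured cells held the fewest UMIs, and the balance depended on scaling: with TMM factors in place of totals the counts were 101 and 101. The median log2 ratio of all genes tested was -0.306 against 3 w and -0.195 against 16 w, so each fold below carries that shift. Injury cannot be told apart from depth, sex or any other difference of this library. Of the genes past 2-fold lower than 16 w that had 100 UMIs or more in other ECs, 161 of 332 were past 2-fold lower there too, as were 69 of 124 of those higher.

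Vcam1, the adhesion molecule that binds leukocytes (chromosome 3, 116109949 to 116129688, minus strand, GRCm38), was at 36.9, 96.6, 34.2, 88.8 and 706 CPM in arterial cells, 7.31-fold above 3 w (6.02 to 8.86) and 20.6-fold above 16 w (14.7 to 29.5). In other ECs it was at 27.2, 63.5, 96.4, 54.3 and 113 CPM, 1.78-fold above 3 w and 1.17-fold above 16 w (0.809 to 1.67). The 188 UMIs came from 18 of the 68 cells, and 3 cells held 56.9% of them, so its level rests on few cells. Without cells that had 3 or more mural markers the log2 ratios of Vcam1 were 3.09 against 3 w and 4.41 against 16 w.

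Cxcr4, the receptor of Cxcl12 (chromosome 1, 128588199 to 128592293, minus strand, GRCm38), was spread more evenly, over 36 of the 68 cells with 7.76% of its UMIs in the top cell. It was at 29.9, 155, 10.6, 30.6 and 435 CPM in arterial cells and at 11.4, 132, 20.8, 16.0 and 294 CPM in other ECs. In arterial cells it was 2.81-fold above 3 w (2.27 to 3.46) and 41.1-fold above 16 w (23.1 to 79.5), and in other ECs it was 14.1-fold above 16 w. Jag1, at 469 CPM after injury, was 3.09-fold above 3 w (2.51 to 3.79) and 6.26-fold above 16 w (4.74 to 8.28), in 42 of 68 cells, and 8.36-fold above 16 w in other ECs. Both genes were therefore high in arterial cells and in other ECs of that library. In non-endothelial cells of the injured library Cxcr4 was at 18.5 CPM, against 2.62 CPM at 16 w. At 1000 UMIs Jag1 was detected in 5.85% of non-endothelial cells of the injured library, against 2.05% at 3 w and 2.5% at 16 w. Cxcr4 and Jag1 were the 2 of 20 arterial genes outside the rule past 2-fold against both, and with TMM factors Edn1 and Stmn2 joined them. Dll4 was lower than at 3 w (4.05-fold) and nearer to 16 w (1.55-fold lower).

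Other genes higher against both were the neutrophil chemokine Cxcl2, at 110, 184, 18.7, 170 and 548 CPM but in 16 cells with 38.4% of its UMIs in the top cell, Spry2, a feedback inhibitor of growth factor signalling (6.11-fold above 3 w and 9.83-fold above 16 w), the chaperone Hsph1 (7.12-fold and 2.89-fold) and Nr2f2 (3.57-fold and 2.77-fold), whose level lay below that of non-endothelial cells. The stromal markers Col1a1 and Lum were past 2-fold higher than both in the same cells, 2 of 11, and their part in these results was not tested. In other ECs Cxcl2 was 17.4-fold and Spry2 9.985-fold above 16 w, and Hsph1 was 4.17-fold above 3 w. In non-endothelial cells of the injured library Spry2 was at 346 CPM, against 63.4 CPM at 16 w. Cxcl2 was at 184 CPM there, against 127 CPM at 16 w. Past 2-fold against all 4 normal libraries, and at or above the non-endothelial level, were 18 genes upwards, with Vcam1, Cxcl2, Cxcr4, Jag1 and Spry2 among them, and 33 downwards.

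Among genes that were lower after injury were BMP targets and genes of lipid uptake. Of 11 genes of the TGF-beta and BMP list 2, Id1 and Id3, were past 2-fold lower than both and 0 higher. Over all genes 8.03% were lower than both and 2.25% higher, which is the background for this list and those below. Id1 stood at 672, 264, 853, 922 and 86.3 CPM, the injured library alone at the bottom, 3.06-fold below 3 w (2.02 to 4.86) and 9.88-fold below 16 w (6.55 to 15.7), and in other ECs it was as low, at 84.0 CPM. Id3 was 2.79-fold and 6.99-fold lower. Cd36 was at 328, 268, 329, 317 and 52.6 CPM, level in the 4 normal libraries, and 5.11-fold below 3 w (3.03 to 9.40) and 6.27-fold below 16 w (3.69 to 11.6). Lpl was 5.71-fold and 8.38-fold lower. Of 10 capillary genes 5 were past 2-fold lower than both (Gpihbp1, Cd36, Plvap, Lpl and Btnl9) and 0 higher. With TMM factors only Cd36 and Lpl of these stayed past 2-fold, and of 6 fatty acid genes 4 became 2.

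Klf2 was at 570 CPM after injury, 3.41-fold below 3 w and 3.94-fold below 16 w, while Klf4, at 1501 CPM, was within its range in the normal discs from 3 w on. Of 14 immediate early genes 6 were past 2-fold lower than both, or 4 with TMM factors (Jun, Egr1, Ier2 and Btg2), and Fos (2.09-fold and 3.27-fold) was among the 6 but not the 4. Socs3, an inhibitor of cytokine signalling, was 7.09-fold and 6.33-fold lower, and Spry1 8.07-fold and 6.37-fold lower. Of 10 MHC class I genes 4 were past 2-fold lower (H2-Q4, H2-T23, Tap2 and Psmb9), with either scaling. Named genes with larger ratios downwards were Gm42418, AY036118, Grrp1, Fam13c, Arhgef15 and Thrsp, and Fmo2, which had 2 UMIs in the injured arterial cells. Of these, Gm42418 and AY036118 were lower outside the endothelium too. In non-endothelial cells they stood at 571 and 41.4 CPM in the injured library, against 8820 and 284 CPM at 3 w.

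**Figure D5:**
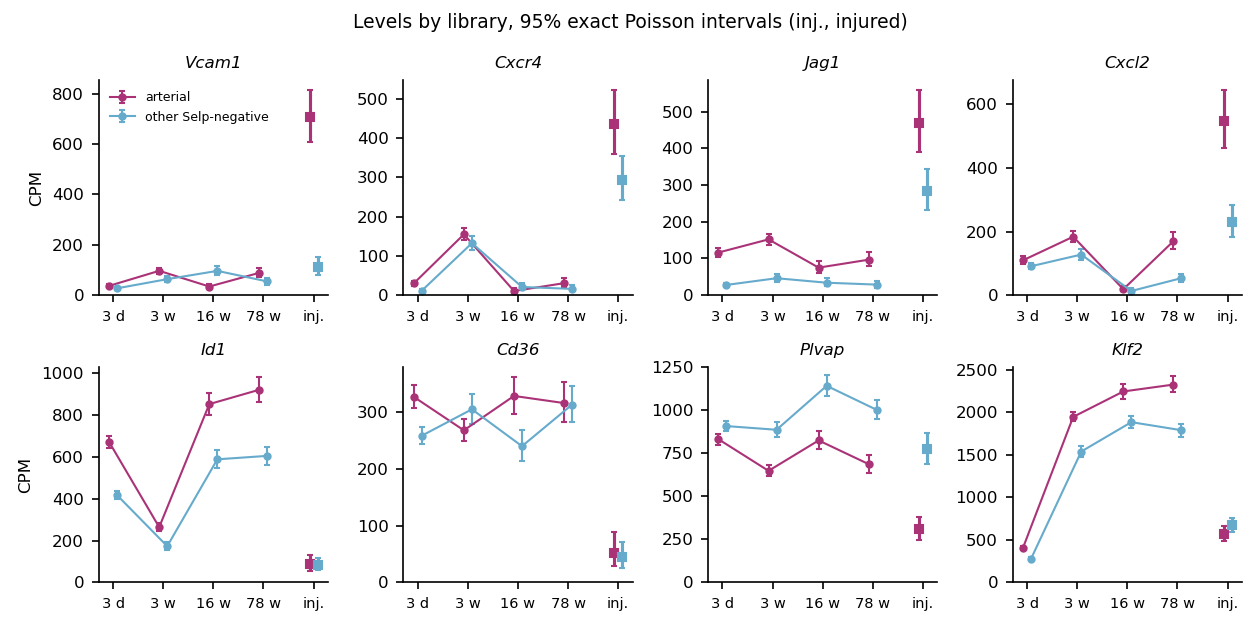
Level in CPM (y axis) of 8 genes in arterial ECs and other ECs by library (x axis), with the injured library set apart as squares and exact 95% Poisson intervals. In arterial cells the injured library is the highest for Vcam1 (706 CPM), Cxcr4, Jag1 and Cxcl2 and the lowest for Id1, Cd36 and Plvap, while its Klf2 lies between 3 d and 3 w.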

How the data were processed

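The authors digested TMJ discs, made 10x Genomics 3′ libraries and deposited 1 table of UMI counts (27998 genes by cell barcodes) for each library, as raw whole numbers with no normalization applied. The submitters' processing notes name Cell Ranger 3.1 and mm10, whereas the file headers name another version of Cell Ranger, and the name of the 78 w file gives another age than its label, which was used. Each library counts as 1 replicate.

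Cells whose mt- genes took up to 30% of UMIs were kept. No doublet caller was run, and possible doublets were instead left out in alternatives (cells above 2 times the median UMIs, or with 3 or more mural markers). The members and the gene lists were chosen with earlier results of these data known. UMIs were summed per library and class. Arterial and other Selp-negative ECs were compared over the 10 sums with edgeR 4.0.16 (quasi-likelihood test, TMM, filterByExpr, library as a block) in R 4.3.3, and with DESeq2 1.42.0 as an alternative. Libraries were compared by ratios of CPM (UMIs of a gene over all UMIs of the same cells), with exact intervals from scipy 1.17.1, for genes with at least 100 UMIs over both sums. Counts under 3 were raised to 3 when genes were ranked or called past 2-fold. A ratio against 0 is taken against 3 counts and given next to its exact interval limit. In data simulated for the class comparison with 9755 genes, the test recovered 57% of genes changed 2-fold and 95% of those changed 4-fold. The simulated sums shared a common profile and a fixed dispersion, with no differences between libraries. These rates therefore describe that setting and not the power in the real data, where the calls rest on the library block.

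Named genes were those of the lists and those with the largest differences. In the class test these were the 10 with the largest fold each way among genes past the threshold, with at least 100 UMIs and the same direction in all 5 libraries. Fam174b was kept although it was at 0 CPM in both classes of the injured library. Between libraries they were the 5 with the largest ratio each way among genes at or above their non-endothelial level. An item that ranked among them is not reported here. Of the listed symbols 1 was not found in the files. Gene coordinates are from the GENCODE annotation of GRCm38. Depth was between 31585993 UMIs in the injured library and 125427849 at 3 w.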

Additional observations from a re-analysis of the deposited data

How the results depend on the processing

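The counts of genes called between arterial and other ECs, 246 higher and 125 lower, ranged from 114 to 208 and from 48 to 111 when 1 library was left out in turn. They were 411 and 232 with no filter on low counts, which tested more genes, 150 and 58 with DESeq2, 120 and 83 without cells with 4 or more stromal markers (an alternative chosen after seeing the data), and 207 were lower without cells with 3 or more mural markers. With the library block left out they were 2 and 0, against 104 and 43 at an unadjusted p under 0.05. The block pairs the 2 classes of each library, and the calls rest on that pairing. RLE factors, a mitochondrial limit of 10%, thinning to 3000 UMIs and a rule of 3 or more arterial genes kept both counts within 1.5 times.

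The share of Selp-negative ECs counted as arterial (3 d, 3 w, 16 w, 78 w, injured) was 19.5, 38.0, 28.6, 34.6 and 40.3% at 3000 UMIs, 11.8, 12.9, 8.81, 10.3 and 10.2% at 1000 UMIs, and 16.8, 27.0, 19.9, 21.9 and 14.1% with 3 or more arterial genes. With the cap on UMIs it was 29.2% at 3 d.

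Genes past 2-fold in either direction numbered 2326 (3 w against 3 d), 605 (16 w against 3 w), 56 (78 w against 16 w), 1382 (78 w against 3 d) and 247 (injured against both). With a minimum of 50 UMIs the last 4 were 960, 154, 2127 and 503, and with 200 UMIs the 5 were 1528, 374, 29, 787 and 101, since other numbers of genes were tested. At 3000 UMIs they were 564, 210, 25, 288 and 71, and without the cells rich in stromal markers 897, 382, 19, 340 and 79, where fewer UMIs were left. Genes at or above the non-endothelial level numbered 1536 for 3 w against 3 d, 24 for 78 w against 16 w and 157 for injured. With the cap on UMIs, 1487 (3 w against 3 d), 819 (78 w against 3 d) and 157 (injured) were counted, and with 3 or more arterial genes 791 (78 w against 3 d) and 131 (injured). The log2 ratio of Postn at 16 w against 3 w, a gene with 2 UMIs at 16 w, turned to 0.458 at 3000 UMIs and to 0.258 with the cap on UMIs. Of the other values of named genes, 768 kept their direction and their side of the threshold or moved within their interval, 39 no longer passed and 118 moved further. The injured values come from 68 cells, and TMM factors changed their counts from 54 and 193 to 101 and 101.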
